A study of Homo sapiens with 6 samples.

Results

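Genes for 43 methyltransferases, enzymes that move a methyl group from S-adenosylmethionine to DNA, RNA, protein or a small molecule, were examined in SK-N-SH cells treated with dopamine. The 43 symbols were chosen by function, each matched 1 row of the 26789 genes listed, and 41 of them had a mean of at least 1 FPKM (fragment counts scaled to gene length and library size) over the 6 samples, as did 11791 genes in all. SK-N-SH is a human neuroblastoma line, here labelled as wild type. The control group (n = 3) was kept in medium alone and the dopamine group (n = 3) in medium with dopamine, both for 6 h after a day in standard medium. The unit of the dose has lost its prefix in the labels, so no dose is given. The series' design text names SH-SY5Y, a subline of SK-N-SH, while all 6 samples are labelled SK-N-SH. The series asks what dopamine does to the growth of these cells. The replicates are not said to come from separate cultures. A p-value here thus sets a difference only against the spread among these samples, which may be technical variation.

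Methyltransferases set the methylation of cytosine in DNA, of lysine and arginine in histones and other proteins, and of adenosine and cytosine in RNA. All draw on S-adenosylmethionine, which the enzyme encoded by MAT2A makes from methionine in most tissues, and all release S-adenosylhomocysteine, which inhibits many of them until the hydrolase encoded by AHCY removes it. In neuroblastoma, EZH2 and other chromatin writers are known for holding differentiation genes silent.

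The libraries held about 19386000 to 24224500 fragments each, as recovered from the steps between low values of short pseudogenes. Transcripts of high GC content had relatively higher values in control libraries and lower values in dopamine libraries. The slope of a library's deviation from the gene means, per 10 points of GC content of the longest transcript, in log2 units, was 0.02, 0.11 and 0.22 for the control replicates in order of number, and for the dopamine replicates -0.03, -0.06 and -0.26. The groups did not overlap (two-sided exact permutation p = 0.1, and no smaller p is possible with 3 against 3). All 9 adrenergic neuroblastoma markers were measured, and their summed level was 325 to 376 FPKM in control and 317 to 369.7 FPKM in dopamine libraries. The sums follow the highest genes, such as HAND2. Of the 9, 5 had a higher and 4 a lower mean, with log2 fold changes from -0.26 (DBH) to 0.35 (CHGB). Every dopamine value lay below every control value in PHOX2A and GATA2 (22.2%, against 14.1% of all genes). The 6 mesenchymal neuroblastoma markers, mostly VIM, summed to 1130.2 to 1269 and 1124 to 1175 FPKM. Of these, 4 had a higher and 2 a lower mean, from -0.09 (VIM) to 0.46 (SNAI2). In SNAI2 alone every dopamine value lay above every control value (16.7%, against 24.4% of all genes). Of other cell types, the 3 immune and 3 endothelial markers in the table stayed under 1 FPKM each on average, EPCAM and CDH1 likewise. The summed epithelial markers were nearly all KRT18 and KRT8. Their sum was 140.1 to 174.5 FPKM in control and 105 to 121 FPKM in dopamine libraries. The 4 fibroblast markers, mostly COL1A1, summed to 349.6 to 400.3 and 277 to 388 FPKM. COL1A1 had a lower mean with dopamine (log2 fold change -0.17), whereas DCN, LUM and PDGFRA had higher means (0.34, 0.55 and 0.37). The part of all these markers in the results below was not tested.

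None of the 41 measured methyltransferase genes had an adjusted p under 0.05 in limma (two-sided, adjusted by Benjamini-Hochberg over all tested genes), which is what passing means below. Of all genes 0.102% passed. At an unadjusted p under 0.05 lay 12 members (29.3%), 9 of them higher and 3 lower with dopamine, against 32.5% of all genes (24.4% higher and 8.05% lower). That split depended on the scaling: it was 7 higher and 7 lower after median-of-ratios scaling, and 5 higher and 6 lower after quantile normalization. The split over all genes was not counted under these scalings. The 3 dopamine values were all above or all below the 3 control values in 19 members (46.3%), above in 12 and below in 7, against 38.4% of all genes (24.4% above and 14.1% below). The members' shares thus lay near those of all genes. Their median log2 fold change was 0.09, beside 0.08 over all genes. In contrast MAT2A, which supplies the substrate of all these enzymes, rose from 54.5, 51.1 and 56.2 FPKM in the control libraries to 113, 119 and 122 FPKM with dopamine, 2.17-fold (limma adjusted p = 0.00035). Fold changes are on the log2(FPKM + 0.5) scale, which understates those of low genes. On this scale no member differed by more than 1.42-fold in either direction. The 95% intervals of the fold change on it, unadjusted, excluded a 2-fold difference for all 41. Intervals with an added constant other than 0.5 were not computed. The mean of METTL14, near the filter, was 1.25 FPKM in control and 1.96 FPKM in dopamine libraries. The outermost bounds were 1.87-fold higher, for METTL14, and 1.38-fold lower, for CARM1. Fewer cells with a transcript and less of it per cell cannot be told apart in such bulk samples.

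The count of passing members depended on control replicate 1: with all 6 libraries none passed, without it 6 did, CARM1 lower and SETD2, WHSC1L1, PCMT1, PRMT3 and SETD3 higher, while 2177 of all genes did so. With sample quality weights 10 members passed, and 2706 of all genes. The 12 members at an unadjusted p under 0.05 became 4 when control replicate 2 was left out. They became 5 for control replicate 3 and 6 for dopamine replicate 3. Leaving out both replicates numbered 3 left 2, both lower with dopamine, and none of the 9 higher. The share of all genes at that p was not counted with libraries left out, so these counts do not set the members apart from other genes.

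**Figure D1:**
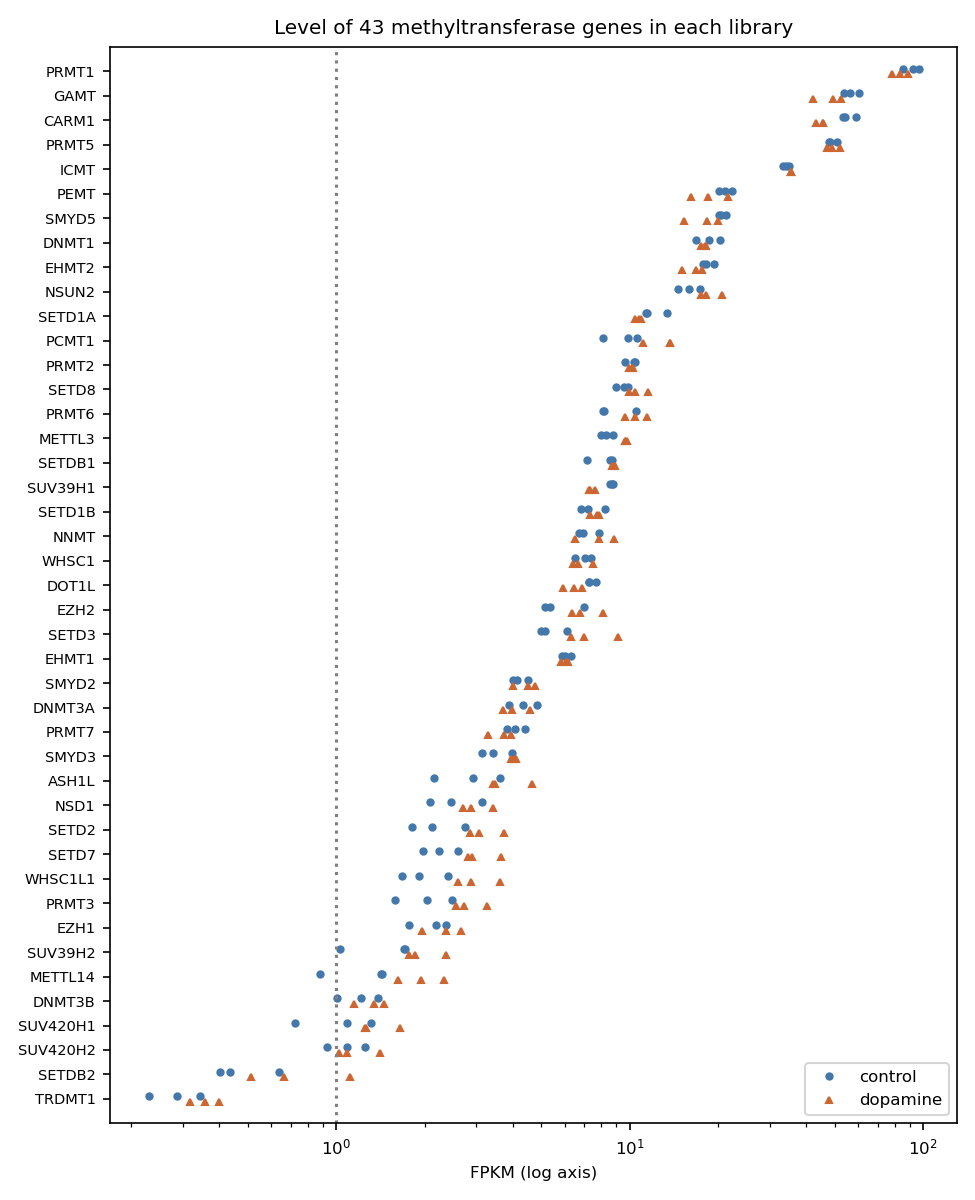
FPKM on a log axis of the 43 methyltransferase genes in each of the 3 control (circles) and 3 dopamine (triangles) libraries, ordered by mean, with a dotted line at 1 FPKM. PRMT1 was highest and TRDMT1 lowest, and for most genes the circles and triangles lie close together relative to the distance between genes.

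The levels of the enzymes spanned a wide range, from a mean of 87.5 FPKM for PRMT1, GAMT at 52.4 and CARM1 at 50.1 down to 0.322 FPKM for TRDMT1, as the plot of levels by library shows. The sequences upstream of the starts of 4 members are given because these 4 were among the members with the smallest p in each direction. CARM1 and SUV39H1 were lower in every dopamine library than in every control library, and PCMT1 and SETD3 were higher. Each is the 250 bases before the start, 5′ to 3′ on the gene's strand (RefSeq, GRCh38.p14), with GC boxes (GGGCGG, either strand) and CCAAT boxes (CCAAT, either strand) in capitals. These 2 motifs do not overlap in the runs shown, though neighbouring GC boxes can. The positions are chr19:10871303-10871552 (plus strand) for CARM1, chrX:48695304-48695553 (plus strand) for SUV39H1, chr6:149749445-149749694 (plus strand) for PCMT1 and chr14:99480860-99481109 (minus strand) for SETD3.
CARM1: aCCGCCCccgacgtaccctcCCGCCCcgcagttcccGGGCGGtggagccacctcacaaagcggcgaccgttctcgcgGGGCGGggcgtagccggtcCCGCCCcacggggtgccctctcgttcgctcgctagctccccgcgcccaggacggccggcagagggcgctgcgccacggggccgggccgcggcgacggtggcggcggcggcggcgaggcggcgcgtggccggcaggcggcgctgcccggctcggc
SUV39H1: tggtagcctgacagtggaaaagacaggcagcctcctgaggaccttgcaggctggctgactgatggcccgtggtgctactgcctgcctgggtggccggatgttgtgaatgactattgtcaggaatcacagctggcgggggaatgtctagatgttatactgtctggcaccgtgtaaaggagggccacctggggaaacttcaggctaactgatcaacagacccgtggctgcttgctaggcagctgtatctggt
PCMT1: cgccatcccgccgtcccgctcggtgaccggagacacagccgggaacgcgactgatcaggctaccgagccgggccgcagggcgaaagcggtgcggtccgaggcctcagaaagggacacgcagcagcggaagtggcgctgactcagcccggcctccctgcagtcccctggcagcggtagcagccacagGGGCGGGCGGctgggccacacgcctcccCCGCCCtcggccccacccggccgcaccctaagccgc
SETD3: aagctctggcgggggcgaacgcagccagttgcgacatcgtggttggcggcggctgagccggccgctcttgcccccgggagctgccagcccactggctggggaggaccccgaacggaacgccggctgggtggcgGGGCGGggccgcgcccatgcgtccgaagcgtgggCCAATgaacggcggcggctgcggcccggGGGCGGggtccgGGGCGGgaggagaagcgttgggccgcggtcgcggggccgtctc

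CARM1 held 5 GC boxes in this window, PCMT1 3 and SETD3 3, and SUV39H1 none, and SETD3 alone of the 4 held a CCAAT box. GC made up 81.6% of the CARM1 window, 77.2% of that of SETD3, 74.4% of that of PCMT1 and 56.0% of that of SUV39H1. A GC box occurred in 24 of the 37 members with an entry (64.9%), against 42.3% of all 27305 promoters of this length, and a CCAAT box in 11 (29.7%), against 33.0%. The 27305 promoters, 1 per gene symbol, were not limited to genes expressed here. These shares thus do not set the members apart from other expressed genes. The start was found within a transcript of the same gene for 30 of the 37. The antioxidant response core TGACNNNGC, on either strand, occurred in 1 member, PCMT1, and in 11.0% of all promoters. Promoter GC content and the difference with dopamine were weakly related across the 35 of these members that were tested (Pearson r = 0.112), where transcript GC content and the difference were closely related, as described next.

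The sign of a member's difference followed the GC content of its transcript. All 12 members whose longest transcript had under 45% GC had a higher mean with dopamine (median log2 fold change 0.36, range 0.18 to 0.50), and in 8 of them (66.7%, against 48.2% of all genes of this class) every dopamine value lay above every control value. Of the 13 members with 55% GC or more, 11 had a lower mean (median -0.16), and in 7 (53.8%, against 37.1% of all genes of this class) every dopamine value lay below every control value. The 16 members in between had a median of 0.09. Over all tested genes the medians of the same 3 classes were 0.36, -0.14 and 0.07. Across the 41 members the log2 fold change and transcript GC content had a Pearson r of -0.843 and a Spearman rho of -0.860, and across 11579 genes -0.750 and -0.783. These values share their libraries, so they describe the pattern and carry no test.

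**Figure D2:**
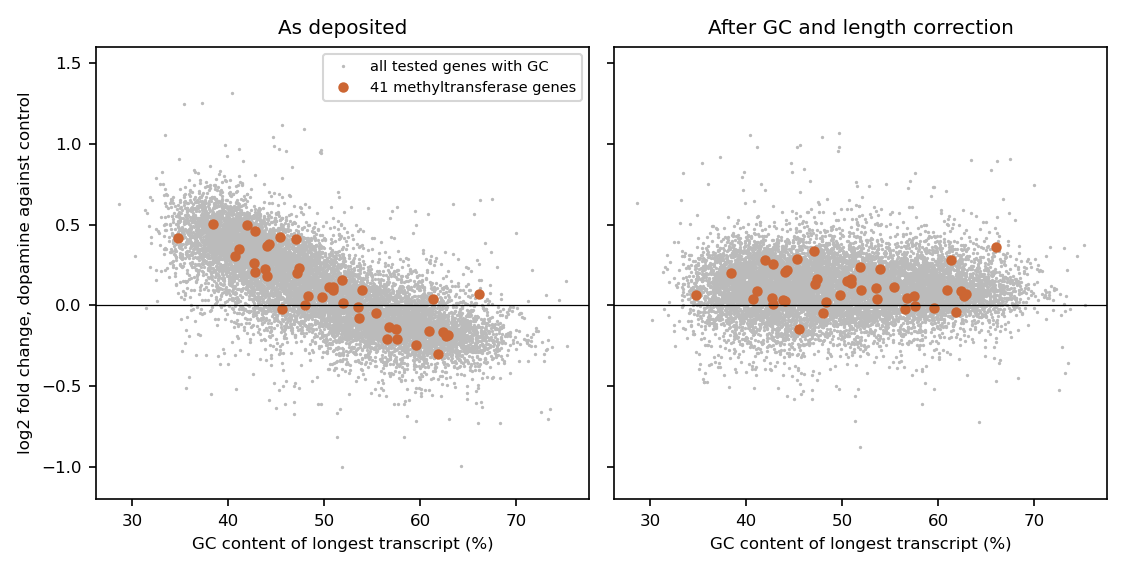
Log2 fold change with dopamine against the GC content of the longest transcript, for the 41 measured methyltransferase genes (large points) over all tested genes with a GC value (small points), as deposited and with GC content and length corrected. The methyltransferase genes run from above 0 at low GC content to below 0 at high GC content (r = -0.843). They lie level after the correction (r = -0.044), which removes such a relation over all genes by construction. A further 2 genes lie beyond the vertical axis.

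The pattern was strongest in the 2 libraries numbered 3. Among the 12 members under 45% GC, 10 had their highest value of all 6 libraries in dopamine replicate 3 and 10 had their lowest in control replicate 3. Their median deviation from the gene mean was -0.45 log2 units in control replicate 3 and 0.38 in dopamine replicate 3, but between -0.17 and 0.10 in the other 4 libraries. The members of the high-GC class ran the other way, at 0.15 in control replicate 3 and -0.20 in dopamine replicate 3. A loess correction of each library for GC content and transcript length removes such a relation over all genes by construction. Across members it left r = -0.044. After it none of the 41 passed (0.32% of all genes did). An unadjusted p under 0.05 was then reached by 8, all higher, against 22.9% of all genes (20.6% higher and 2.21% lower). The libraries' GC trend moved with the groups, so what the correction removes of a response to dopamine cannot be told apart from what it removes of the trend.

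**Figure D3:**
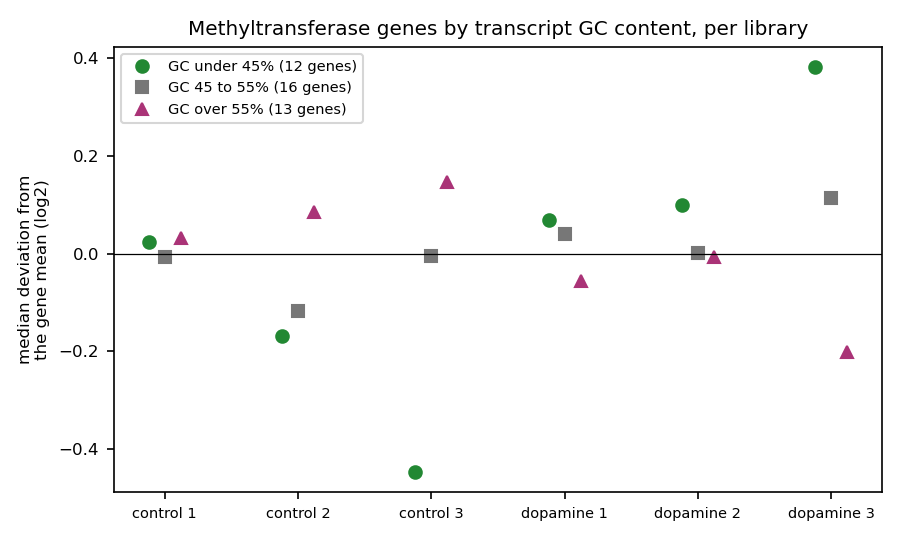
Median deviation from the gene mean (log2 FPKM + 0.5) in each library, for methyltransferase genes in 3 classes of transcript GC content. Dopamine replicate 3 and control replicate 3 lie farthest apart, at 0.38 and -0.45 for the low-GC class, with the high-GC class in the reverse order.

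Among the DNA cytosine methyltransferases none of the 3 genes passed, none had an unadjusted p under 0.05, and their groups overlapped. DNMT1, which copies methylation to the new strand after replication, stood at 18.6, 16.8 and 20.4 FPKM in control and 17.5, 18.1 and 18.2 FPKM in dopamine libraries. Its log2 fold change was -0.05, with a 95% interval of -0.25 to 0.15, and the dopamine values lay within the control range. DNMT3A, a de novo enzyme, stood at 4.82, 3.88 and 4.33 FPKM and at 3.97, 3.70 and 4.58 FPKM (log2 fold change -0.08, 95% interval -0.35 to 0.20). DNMT3B, the other de novo enzyme, was near the filter, at 1.22, 1.01 and 1.39 FPKM and 1.34, 1.15 and 1.45 FPKM (log2 fold change 0.09, 95% interval -0.24 to 0.43). Within each sample DNMT1 was 3.87 to 4.90 times as high as DNMT3A and 12.5 to 16.7 times as high as DNMT3B, with both ratios overlapping between the groups. UHRF1, which guides DNMT1 to hemimethylated sites, stood at 15.2 ± 1.16 FPKM without and 12.7 ± 0.135 FPKM with dopamine (SD, n = 3; limma adjusted p = 0.117), every dopamine value below every control value.

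Of 20 histone lysine methyltransferase genes in 6 groups by mark, 19 were measured. No gene of them passed, an unadjusted p under 0.05 was reached by 4 (21.1%, against 32.5% of all genes), and 13 had a higher and 6 a lower mean with dopamine, where 7076 of all 11791 genes had a higher mean.

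Of the H3K4 writers, SETD7, a monomethylase that also acts on other proteins, stood at 2.59, 2.25 and 1.98 FPKM in control and 2.81, 2.89 and 3.65 FPKM in dopamine libraries. All dopamine values were above all control values, with a log2 fold change of 0.38 (SE 0.14, limma adjusted p = 0.121). SETD1A, a catalytic subunit of a COMPASS complex, had every dopamine value below every control value, at 12.1 ± 1.13 and 10.7 ± 0.233 FPKM (log2 fold change -0.16, SE 0.09). Its paralog SETD1B stood at 7.44 ± 0.729 and 7.65 ± 0.262 FPKM with overlapping groups. With GC content and length corrected, SETD1A was at 0.09 and SETD1B at 0.28 (limma adjusted p = 0.492 and 0.140). None of 8 genes for partners in COMPASS complexes, some of them particular to 1 kind of complex, passed, with DPY30 at 8.56 ± 0.586 and 10.7 ± 0.968 FPKM and ASH2L at 5.09 ± 0.607 and 6.46 ± 0.468 FPKM (limma adjusted p = 0.113 and 0.117), and their median log2 fold change was 0.08.

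The H3K9 writers held both directions. SUV39H1 (hg19 chromosome X, 48553945 to 48567403), which trimethylates H3K9 in heterochromatin, stood at 8.76, 8.54 and 8.70 FPKM in control and 7.35, 7.64 and 7.28 FPKM in dopamine libraries. The groups were narrow and apart, with a log2 fold change of -0.21 (SE 0.08, limma adjusted p = 0.133), and the corrected difference was -0.0029 (SE 0.08). Its paralog SUV39H2, of low GC content, stood at 1.70, 1.71 and 1.03 FPKM and 1.77, 1.85 and 2.38 FPKM (log2 fold change 0.35, SE 0.18). SUV39H2 was at 0.09 after the correction. EHMT2, the catalytic subunit G9a, stood at 18.5 ± 0.841 and 16.5 ± 1.32 FPKM, its partner EHMT1 at 6.07 ± 0.231 and 6.03 ± 0.176 FPKM, and SETDB1, which acts with zinc finger repressors, at 8.14 ± 0.837 and 8.82 ± 0.118 FPKM. SETDB2 lay under the filter, at 0.640, 0.435 and 0.402 FPKM and 0.666, 0.512 and 1.11 FPKM, and was not tested.

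The H3K27 writers EZH2 and EZH1 are alternative catalytic subunits of the Polycomb complex PRC2. EZH2 stood at 7.0, 5.14 and 5.35 FPKM in control and 6.77, 6.34 and 8.13 FPKM in dopamine libraries. Control replicate 1 lay above 2 of the 3 dopamine values, and the log2 fold change was 0.26 (SE 0.14, limma adjusted p = 0.203) and 0.04 after the correction. EZH1 stood at 2.11 ± 0.311 and 2.32 ± 0.352 FPKM. The ratio of EZH2 to EZH1 was 2.79 ± 0.486 in control and 3.06 ± 0.189 in dopamine samples, with overlapping groups. Of 9 genes for PRC2 partners none passed. SUZ12, a core subunit, stood at 2.39 ± 0.454 and 3.54 ± 0.705 FPKM and PHF19, an accessory subunit, at 9.13 ± 0.378 and 7.15 ± 0.372 FPKM (limma adjusted p = 0.115 and 0.11). The partners' median log2 fold change was 0.26 as deposited and 0.04 after the correction.

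The H3K36 writers had the highest median log2 fold change of the groups by substrate, 0.37, and the lowest median GC content of the histone groups, 44.0%. SETD2 (hg19 chromosome 3, 47057919 to 47205457), the only enzyme known to place most H3K36 trimethylation, stood at 2.75, 2.11 and 1.81 FPKM in control and 2.87, 3.07 and 3.72 FPKM in dopamine libraries. The groups were apart by a small gap, with a log2 fold change of 0.46 (SE 0.16, limma adjusted p = 0.115). WHSC1L1 (hg19 chromosome 8, 38127215 to 38239790), also called NSD3, stood at 2.40, 1.92 and 1.67 FPKM and 2.87, 2.60 and 3.62 FPKM (log2 fold change 0.50, SE 0.16, limma adjusted p = 0.111). These 2 genes were at 0.26 and 0.28 after the correction (limma adjusted p = 0.177 and 0.150). ASH1L, a further H3K36 enzyme, stood at 3.61, 2.93 and 2.15 FPKM and 3.47, 3.43 and 4.63 FPKM, with overlapping groups and a log2 fold change of 0.37 (SE 0.18, limma adjusted p = 0.178). NSD1, whose loss underlies an overgrowth syndrome, stood at 2.57 ± 0.528 and 3.0 ± 0.376 FPKM, also overlapping. WHSC1, or NSD2, had overlapping groups, at 6.98 ± 0.436 and 6.86 ± 0.583 FPKM, and its log2 fold change was -0.02.

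For H4K20 and H3K79, the monomethylase gene SETD8 stood at 9.55, 9.01 and 9.85 FPKM in control and 11.5, 9.93 and 10.4 FPKM in dopamine libraries. The groups were apart, with a log2 fold change of 0.15 (SE 0.09, limma adjusted p = 0.249) and of 0.24 after the correction (limma adjusted p = 0.143). The di- and trimethylases SUV420H1 and SUV420H2 were near the filter, the first at 1.04 ± 0.299 and 1.39 ± 0.229 FPKM without and with dopamine, the second at 1.09 ± 0.161 and 1.17 ± 0.211 FPKM. DOT1L, the H3K79 enzyme, had every dopamine value below every control value, at 7.41 ± 0.245 and 6.43 ± 0.479 FPKM (log2 fold change -0.19, SE 0.09), and was at 0.06 after the correction.

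**Figure D4:**
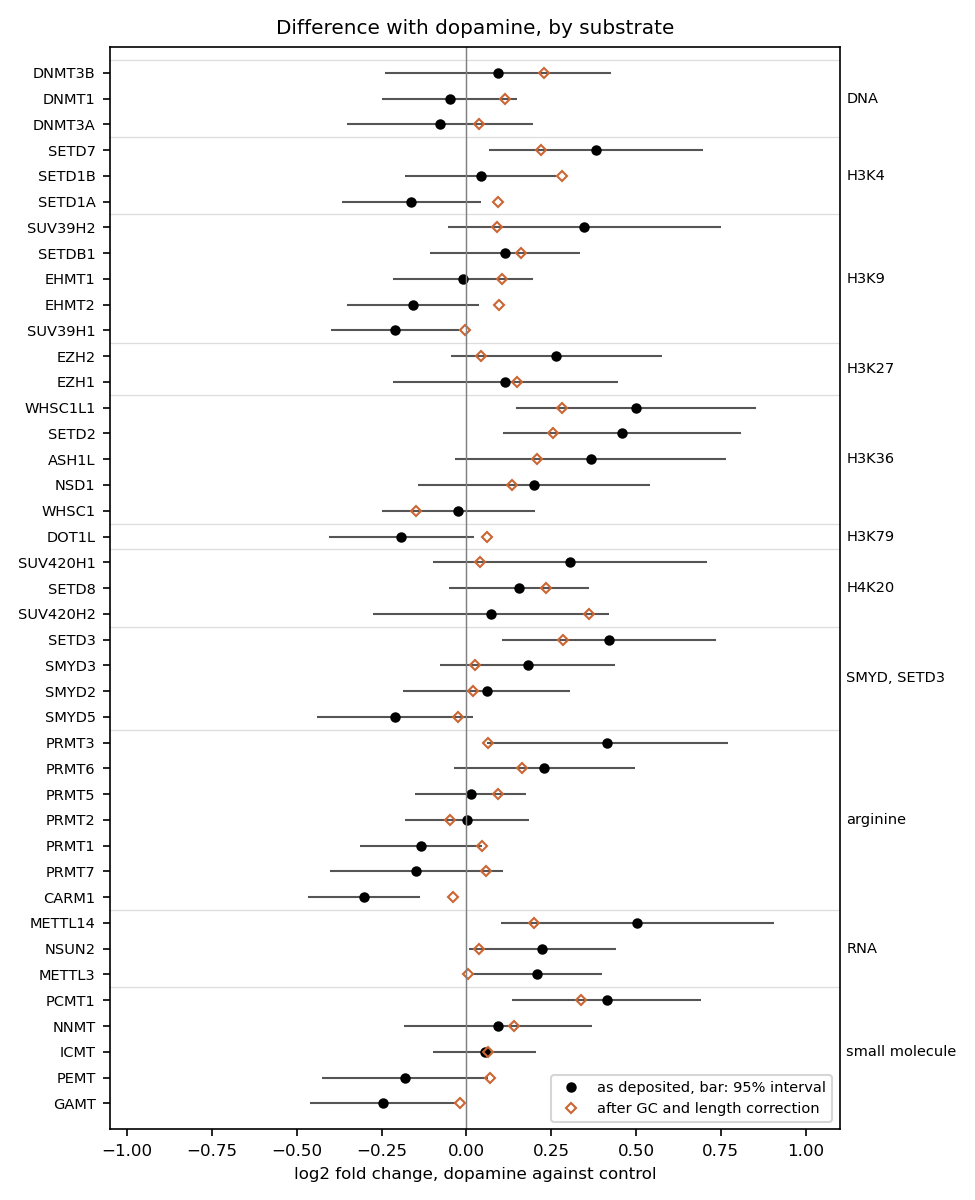
Log2 fold change with dopamine of the 41 measured methyltransferase genes, grouped by substrate, as deposited (filled circles with the 95% interval, unadjusted) and after the GC and length correction (open diamonds). All intervals lie inside a 2-fold difference, and after the correction the genes lie between -0.15 (WHSC1) and 0.36 (SUV420H2).

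SETD3 (hg19 chromosome 14, 99864083 to 99947216) carries a SET domain but methylates a histidine of actin. It stood at 6.09, 5.15 and 5.00 FPKM in control and 6.98, 6.33 and 9.12 FPKM in dopamine libraries. Dopamine replicate 3 was the highest by a wide margin, with a log2 fold change of 0.42 (SE 0.14, limma adjusted p = 0.113) and of 0.28 after the correction (limma adjusted p = 0.179). SMYD5 had the opposite order, at 20.2, 20.4 and 21.4 FPKM and 18.4, 19.95 and 15.3 FPKM (log2 fold change -0.21, SE 0.10). After the correction SMYD5 was at -0.02. SMYD2 and SMYD3, lysine methyltransferases with histone and other substrates, had overlapping groups, SMYD2 at 4.21 ± 0.266 and 4.41 ± 0.382 FPKM without and with dopamine, and SMYD3 at 3.51 ± 0.419 and 4.02 ± 0.0782 FPKM.

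None of the 7 arginine methyltransferase genes passed and 2 had an unadjusted p under 0.05 (28.6%, against 32.5% of all genes), 1 in each direction. CARM1 (hg19 chromosome 19, 10982189 to 11033453), a coactivator that methylates histone H3 and splicing factors, had the smallest p of all members. It stood at 53.3, 54.0 and 58.9 FPKM in control and 45.7, 45.6 and 43.1 FPKM in dopamine libraries. The groups were well apart, with a log2 fold change of -0.30 (SE 0.07, limma adjusted p = 0.11). After the correction it was at -0.04 (SE 0.06, limma adjusted p = 0.721). CARM1 overlaps YIPF2 on the genome, and was counted with a strand setting not given in the sources used here.

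PRMT3 (hg19 chromosome 11, 20409076 to 20530840), a cytosolic enzyme of the ribosomal protein RPS2, had the lowest GC content of the tested members, 34.8%. It stood at 2.48, 2.04 and 1.58 FPKM in control and 2.57, 2.74 and 3.27 FPKM in dopamine libraries, just apart, with a log2 fold change of 0.42 (SE 0.16, limma adjusted p = 0.126) and of 0.06 after the correction. PRMT1, the main asymmetric dimethylase, stood at 85.6, 96.5 and 92.8 FPKM and 83.2, 88.8 and 78.2 FPKM (log2 fold change -0.13, 95% interval -0.31 to 0.05). PRMT5, the main symmetric dimethylase, stood at 47.8, 48.2 and 50.8 FPKM and 48.9, 52.0 and 47.2 FPKM, and its log2 fold change was 0.01 with a 95% interval of -0.15 to 0.18. The PRMT5 groups overlapped fully. PRMT2 at 10.1 ± 0.402 and 10.1 ± 0.154 FPKM and PRMT7 at 4.10 ± 0.294 and 3.65 ± 0.337 FPKM overlapped too, as did PRMT6, a nuclear enzyme, at 8.93 ± 1.36 and 10.5 ± 0.914 FPKM. The cofactor gene CLNS1A, whose product brings Sm proteins to PRMT5, stood at 12.7 ± 0.595 and 15.8 ± 1.98 FPKM (limma adjusted p = 0.115).

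The 3 measured RNA methyltransferase genes all had an unadjusted p under 0.05 and dopamine values above control values, none passed, and all 3 transcripts had under 45% GC. Of all genes 24.4% were higher at that p, and dopamine values lay above control values in 24.4% of all genes and in 48.2% of those under 45% GC. METTL3 and METTL14 form the core that writes N6-methyladenosine in messenger RNA. METTL3 (hg19 chromosome 14, 21966277 to 21979517) stood at 8.77, 8.30 and 7.96 FPKM in control and 9.62, 9.79 and 9.72 FPKM in dopamine libraries. Its log2 fold change was 0.21 (SE 0.08, limma adjusted p = 0.135) and 0.01 after the correction. METTL14 (hg19 chromosome 4, 119606523 to 119636588), the RNA-binding partner, stood at 1.44, 1.43 and 0.878 FPKM and 1.62, 1.94 and 2.33 FPKM. It had the largest log2 fold change of the members, 0.50 (SE 0.18, limma adjusted p = 0.117), and was at 0.20 after the correction, with control replicate 3 the lowest library. In each sample METTL3 was 4.16 to 9.06 times as high as METTL14.

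NSUN2 (hg19 chromosome 5, 6599352 to 6633404), which places 5-methylcytosine in transfer and messenger RNA, stood at 17.4, 14.7 and 15.96 FPKM and 18.2, 17.5 and 20.7 FPKM (log2 fold change 0.22, SE 0.10, limma adjusted p = 0.147), and was at 0.04 after the correction. TRDMT1, a transfer RNA enzyme formerly called DNMT2, lay under the filter, at 0.343, 0.286 and 0.230 FPKM and 0.357, 0.318 and 0.400 FPKM. All 6 genes for partners of the N6-methyladenosine writer had a higher mean, no gene passed, and 3 reached an unadjusted p under 0.05, beside 24.4% of all genes that were higher at that p and 7076 of 11791 with a higher mean. WTAP, which places the complex in nuclear speckles, stood at 7.06 ± 0.825 and 9.06 ± 0.695 FPKM and KIAA1429, a scaffold subunit, at 2.80 ± 0.686 and 4.06 ± 0.615 FPKM (limma adjusted p = 0.111 and 0.117). The partners' median log2 fold change was 0.29, and 0.23 after the correction. The nuclear-retained RNAs MALAT1 and NEAT1, a sign of how much nuclear RNA a library holds, both had a higher mean in dopamine cells. Both were near the filter. MALAT1 stood at 1.03 ± 0.158 and 1.80 ± 0.661 FPKM (limma adjusted p = 0.119), with dopamine replicate 3 at 2.56 FPKM. NEAT1 stood at 1.03 ± 0.172 and 1.51 ± 0.494 FPKM with overlapping groups (limma adjusted p = 0.205). After the correction MALAT1 and NEAT1 were at 0.29 and 0.25 (limma adjusted p = 0.223 and 0.298). GAS5, listed with them but a spliced host transcript of small nucleolar RNAs found largely in the cytoplasm, stood at 22.9 ± 1.41 and 28.4 ± 1.05 FPKM (limma adjusted p = 0.11). Their part in these differences was not tested.

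**Figure D5:**
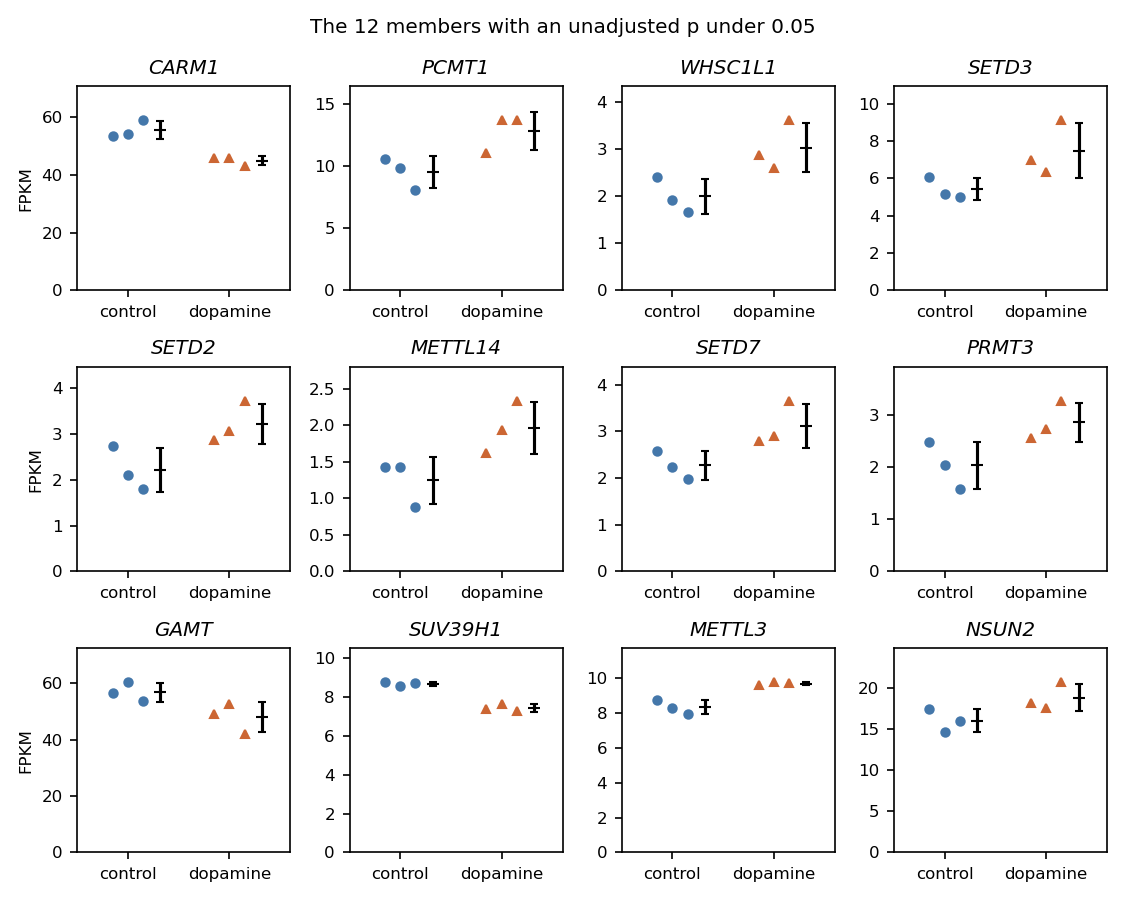
FPKM in each library for the 12 members with an unadjusted p under 0.05 (limma), with the mean and SD of each group (n = 3) beside the points, in order of replicate number. In 9 genes the dopamine values lie above the control values, and in CARM1, GAMT and SUV39H1 they lie below.

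Among the enzymes of small molecules, lipids and single protein residues, PCMT1 (hg19 chromosome 6, 150070579 to 150132556), which starts the repair of isoaspartate in aged proteins, stood at 10.6, 9.91 and 8.11 FPKM in control and 11.1, 13.7 and 13.7 FPKM in dopamine libraries. The groups were apart, with a log2 fold change of 0.41 (SE 0.12, limma adjusted p = 0.11). It stood at 0.34 after the correction (SE 0.12, limma adjusted p = 0.157), the second highest of the members there after SUV420H2. GAMT (hg19 chromosome 19, 1397091 to 1401569), which makes creatine, stood at 56.4, 60.3 and 53.6 FPKM and 49.2, 52.6 and 42.0 FPKM. Its groups were apart, and its log2 fold change was -0.25 (SE 0.10, limma adjusted p = 0.128), and -0.02 after the correction. NNMT, which consumes methyl groups on nicotinamide, stood at 6.74, 7.89 and 6.94 FPKM and 8.86, 7.84 and 6.51 FPKM, and its dopamine values spanned the control values (log2 fold change 0.09, 95% interval -0.19 to 0.37). ICMT, which methylates prenylated proteins such as RAS, stood at 34.1 ± 0.796 and 35.4 ± 0.0817 FPKM, apart but by little (log2 fold change 0.05). PEMT, which makes phosphatidylcholine, stood at 21.2 ± 1.08 and 18.8 ± 2.77 FPKM with overlapping groups.

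Of 16 listed genes of S-adenosylmethionine supply and of the use of its products found in the table, 14 were measured, and MAT2A alone passed, with a log2 fold change of 1.12 (SE 0.07) and of 0.99 after the correction (limma adjusted p = 0.000243). It passed in all 20 alternative settings. An unadjusted p under 0.05 was reached by 9 of the 14 (64.3%, against 32.5% of all genes), 7 higher and 2 lower. The groups did not overlap in 8 (57.1%, against 38.4%). After the correction 5 were at that p, all higher (35.7%, against 20.6%). AMD1 had a log2 fold change of 0.67 and SRM of -0.24 (limma adjusted p = 0.11 and 0.111). After the correction these 2 were at 0.34 and 0.02. AHCY stood at 59.1, 63.9 and 64.4 FPKM in control and 55.6, 58.0 and 49.5 FPKM in dopamine libraries, apart, with a log2 fold change of -0.20 (SE 0.08, limma adjusted p = 0.139) and of -0.02 after the correction. CTH, which makes cysteine from cystathionine, stood at 1.11 ± 0.0824 and 1.89 ± 0.211 FPKM (limma adjusted p = 0.11). The median log2 fold change over the 14 genes was 0.29, and 0.16 after the correction, beside 0.08 and 0.10 over all genes. A further 62 measured methyltransferase genes gave no pass, 15 of them with an unadjusted p under 0.05 (24.2%, against 32.5% of all genes), 12 higher and 3 lower, and a median of 0.16. Of these N6AMT1, which methylates a translation release factor, stood at 3.55 ± 0.320 and 5.23 ± 0.342 FPKM and PRDM4, a zinc finger protein of the same superfamily as SET enzymes, at 7.16 ± 0.607 and 9.72 ± 0.776 FPKM (limma adjusted p = 0.11 for both).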

How the data were processed

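RNA from 3 control and 3 dopamine-treated SK-N-SH samples was measured in ribosomal RNA-depleted, stranded libraries of total RNA, per the labels' protocols. The authors deposited 1 table of FPKM values with hg19 gene coordinates. The tools used were STAR 2.7.1a, HTSeq 0.11.2, DESeq2 1.40.2 and FastQC 0.11.9, with no role stated, per the submitters' processing notes. Values rest on an annotation, a strand setting and an FPKM calculation not given in the sources used here, and 18 of the 43 members overlap another listed gene, so their values may share reads.

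Groups and replicate numbers came from sample titles. Values were analysed as log2(FPKM + 0.5) for genes with a mean FPKM of at least 1, with limma 3.58.1 in R 4.3.3 (intensity trend, no block, two-sided, adjustment over all 11791 genes, threshold 0.05), tested on simulated data. The members, lists, tests and alternatives were chosen with earlier results of these data known. By rule, values per sample were given for the 14 members with the smallest p, the 3 highest in level, 7 chosen by function (DNMT1, DNMT3A, DNMT3B, EZH2, METTL3, PRMT5 and NNMT), MAT2A and AHCY. They were also given, after the values were seen, for SUV39H2, SETDB2, SETD8, TRDMT1, KDM4A and KDM6A. Of each pathway list the 2 genes with the smallest p were named, mostly by mean and SD. Others, such as AMD1 and SRM, were named after the values were seen.

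Depth was recovered from 2809 pseudogenes spanning 150 to 1500 bases, taken as single exons. With the recovered totals 92.3 to 94.2% of the low values were whole fragments within 0.03. GC content and length came from GENCODE transcripts (GRCh38) by gene identifier, for 98.2% of tested genes, with no coordinates taken from there, and the correction removed a loess curve (span 0.5) fitted to every library's deviations. Alternatives were pseudocounts of 0.1 and 1, filters at 0.3, 5 and none, 3 other scalings, no trend, sample quality weights, a replicate block, the GC and length correction, and leaving out each library. Leaving out both replicates numbered 3 was added after seeing the data. Promoters came from RefSeq for 37 of 43 members. Protein sequences were not used here.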

Additional observations from a re-analysis of the deposited data

How the results depend on the processing

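No methyltransferase gene passed the adjusted threshold (limma) under 18 of the 20 alternatives. With sample quality weights 10 passed, 8 higher (SETD2, SETD7, NSUN2, PCMT1, WHSC1L1, PRMT3, METTL3 and SETD3) and 2 lower (GAMT and CARM1), and 2706 of all genes did. The number of passing members was 0 to 6 when 1 library was left out. The 12 genes called in all became 6 with no filter, 27 after quantile normalization (18 higher and 9 lower, against 10 and 2 as deposited), 5 with no trend, 3 with a replicate block, 37 after the GC and length correction, 25 with both of the latter and 7 without both replicates numbered 3, and ran from 3 to 2177 when 1 library was left out. The 12 members with an unadjusted p under 0.05 became 7 at a filter of 5 (where 25 were tested), 7 with the replicate block, 6 with the block and the correction and 2, both lower, without both replicates numbered 3, and 4 to 16 when 1 library was left out. After median-of-ratios scaling they were 7 higher and 7 lower, and after quantile normalization 5 higher and 6 lower. The count of all genes at that p was not taken in these settings. The members' median of 0.09 was 0.0017 at a filter of 5 (0.0037 over all genes), 0.0088 after median-of-ratios scaling (0.00 over all genes) and -0.021 after quantile normalization (-0.01 over all genes), and 0.037 to 0.11 when 1 library was left out. The difference in GC slope, dopamine minus control, was -0.23 and stayed negative in every alternative run on it, from -0.28 to -0.11. The cause of these changes was not tested.

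Same-numbered samples did not deviate together throughout (correlations of -0.20, 0.28 and -0.37). These deviations also carry the libraries' GC slopes, and the labels state no pairing, so whether the replicate number is a pairing cannot be decided here. The block, which changed no member's call, uses up degrees of freedom. The direction held in every alternative for 22 of the 41 members. It turned after median-of-ratios scaling for SETD1B (-0.044), SMYD2 (-0.023), PRMT2 (-0.085), PRMT5 (-0.078) and ICMT (-0.036), after quantile normalization for DNMT3B (-0.071), EZH1 (-0.073), SETD1B (-0.058), SUV420H2 (-0.063), SMYD2 (-0.098), PRMT2 (-0.084) and NNMT (-0.021), and with sample quality weights for DNMT1 (0.032), EHMT1 (0.033) and SMYD2 (-0.025). After the GC and length correction, and equally with the replicate block added to it, it turned for DNMT1 (0.11), DNMT3A (0.037), EHMT1 (0.10), EHMT2 (0.096), SETD1A (0.092), DOT1L (0.060), PRMT1 (0.047), PRMT2 (-0.050), PRMT7 (0.058) and PEMT (0.070). Without both replicates numbered 3 it turned for DNMT1 (0.0080), EHMT1 (0.038) and SMYD2 (-0.022). With 1 library left out the value ran from -0.12 to 0.018 for DNMT1, -0.032 to 0.017 for EHMT1, -0.013 to 0.11 for SETD1B, -0.087 to 0.020 for WHSC1, -0.029 to 0.14 for SUV420H2, -0.030 to 0.020 for PRMT2, -0.026 to 0.043 for PRMT5 and -0.0054 to 0.20 for NNMT. Depth limits the members near 1 FPKM most.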

Other observations

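Enzymes that remove methyl marks were examined beside the writers. Of those chosen for the list 23 were in the table, 19 were measured and none passed in limma. An unadjusted p under 0.05 was reached by 4, all higher with dopamine (21.1%, against 24.4% of all genes). After the GC and length correction it was reached by 6, all higher (31.6%, against 20.6%). Their median log2 fold change was 0.09, beside 0.09 for the methyltransferases and 0.08 over all genes. KDM4A, which removes methyl groups from H3K9 and H3K36, stood at 10.6, 9.85 and 11.1 FPKM in control and 12.4, 11.9 and 12.7 FPKM in dopamine libraries. Its groups were apart, with a log2 fold change of 0.22 (SE 0.08, limma adjusted p = 0.128) and of 0.26 after the GC and length correction (SE 0.06, limma adjusted p = 0.103). KDM6A, an H3K27 demethylase gene, stood at 1.63, 1.33 and 1.41 FPKM and 1.82, 1.87 and 2.57 FPKM, apart, with a log2 fold change of 0.39 (SE 0.15, limma adjusted p = 0.127) and of 0.20 after the correction (limma adjusted p = 0.250).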
